A study of Mus musculus with 12 samples.

Results

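The colony-stimulating factors and their receptors were followed in hippocampal microglia of mice at 2 ages. They comprise every endogenous gene of the panel whose symbol starts with Csf. That gave 5 of 545 genes: Csf1, Csf1r, Csf2, Csf2rb and Csf3r, deposited with the RefSeq transcripts NM_001113530.1, NM_001037859.1, NM_009969.4, NM_007780.4 and NM_001252651.1 in that order. Each gene has 1 probe. The samples were 6 BALB/c males at postnatal day 28 (P28) and 6 at postnatal day 14 (P14), all raised under control conditions and each from a different litter. Microglia were purified by Percoll gradient and flow sorting, and 2 ng of RNA per animal were copied to cDNA, amplified in 5 PCR rounds and counted with the nCounter mouse immune panel, in which a fluorescent barcode is counted for each captured molecule. Stressed animals of the wider study on early-life adversity were not analysed here.

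CSF1R is a receptor tyrosine kinase bound by CSF1 and by interleukin-34, and microglia need its signal for survival. The other receptors belong to the cytokine receptor class, have no kinase of their own and signal through Janus kinases and STAT proteins. CSF2RB is the common beta chain shared by the receptors for GM-CSF (the product of Csf2), interleukin-3 and interleukin-5, and CSF3R binds G-CSF, the main growth factor of neutrophils.

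The start-site regions of the ligand Csf1 and of the receptor Csf3r are shown because transcription factors that act on such regions, among them Runx1, Rela and Nfkb1, were themselves counted on the panel. The sequences are RefSeq GRCm38.p6 (the C57BL/6J reference, not BALB/c), from 250 bases before to 50 bases after the annotated start, 5′ to 3′. Csf1 lies at chr3:107760420-107760719 on the minus strand and Csf3r at chr4:126024409-126024708 on the plus strand. Capitals mark matches, on either strand, to the NF-kappaB consensus in both genes and to the core GAGGAA of the myeloid factor PU.1 in Csf3r.
Csf1: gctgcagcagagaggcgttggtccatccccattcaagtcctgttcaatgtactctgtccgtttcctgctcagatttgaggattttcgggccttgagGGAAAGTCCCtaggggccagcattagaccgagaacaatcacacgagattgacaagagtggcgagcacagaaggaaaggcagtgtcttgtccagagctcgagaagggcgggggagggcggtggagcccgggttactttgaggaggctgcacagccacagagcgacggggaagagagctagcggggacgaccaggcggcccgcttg
Csf3r: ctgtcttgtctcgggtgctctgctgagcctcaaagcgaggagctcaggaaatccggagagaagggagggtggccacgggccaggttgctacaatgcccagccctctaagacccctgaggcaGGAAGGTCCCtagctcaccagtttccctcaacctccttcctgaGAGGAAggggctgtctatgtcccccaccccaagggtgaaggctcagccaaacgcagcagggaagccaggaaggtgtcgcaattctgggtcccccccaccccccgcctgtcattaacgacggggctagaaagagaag
In Csf1 the NF-kappaB match began 154 bases before the start, and no PU.1 core was present in this window. In Csf3r the NF-kappaB match began 129 bases and the PU.1 core 86 bases before the start, and they did not overlap. Neither window held the Runx core TGTGGT or the C/EBP motif TTGCNNAA. Of 32851 promoters of the same length, 5.80% held the NF-kappaB consensus, 28.3% the PU.1 core, 16.8% the Runx core and 10.8% the C/EBP motif. A match describes letters only, and binding was not measured.

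Total endogenous raw counts lay between 1025196 and 1534665 in the P28 samples and between 356398 and 1316430 in the P14 samples. P14 samples 5 and 4 had the lowest totals, 356398 and 772723. The positive-control probes, which are spiked at fixed amounts, had geometric means of 1069 to 1235 counts in P28 lanes and 542 to 651 in P14 lanes. This lane difference and age cannot be told apart on a scale that uses these probes alone. The median log2 fold change of all tested genes, P28 over P14, was -0.74 on that scale. It was 0.13 with the authors' factors, which use these probes together with reference genes, and 0.0026 with the 6 reference genes used here. Levels below are raw counts scaled to the geometric mean of 6 reference genes, and fold changes are P28 over P14 relative to those genes. Of the 545 genes, 366 exceeded the lane background in enough samples for a test, 4 of the 5 Csf genes among them. The 9 markers of microglia on the panel, Csf1r included, all met that condition, and their summed level lay between 217679.7 and 252327 in P28 samples and between 203630.2 and 243379 in P14 samples. Csf1r and Itgam make up most of this sum, which hides shifts of single markers. In P14 samples 4 and 5, Itgam was at 104602 and 91769 and Csf1r at 59808 and 45475. Of the 9, edgeR called 1 higher and 1 lower at P28 at a false discovery rate of 0.05, against 30.6% of all tested genes.

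None of the 4 tested Csf genes passed a false discovery rate of 0.05 between the ages in edgeR when all 12 samples were used, and 0 had an unadjusted p under 0.05. DESeq2, limma on scaled counts and an exact permutation test each called 0 of 4 as well, and limma on the authors' values called 1, Csf1r. Among all tested genes, edgeR called 30.6%. The ages overlapped for each of the 4 genes, while 20.8% of all tested genes showed no overlap. P14 samples 4 and 5 stood apart for all 4 genes. They were the lowest pair of the P14 samples for Csf1 and Csf1r and the highest pair for Csf2rb and Csf3r. Such a position, as lowest or highest pair, was held by these samples in 60.1% of the 366 genes, and as the lowest in 172 of them. Their low totals move with these values, the part of depth was not tested, and each Csf gene, ratio to Csf1r and list count is also given without them. In sorted bulk RNA, fewer cells of a type and less RNA per cell cannot be told apart either.

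**Figure D1:**
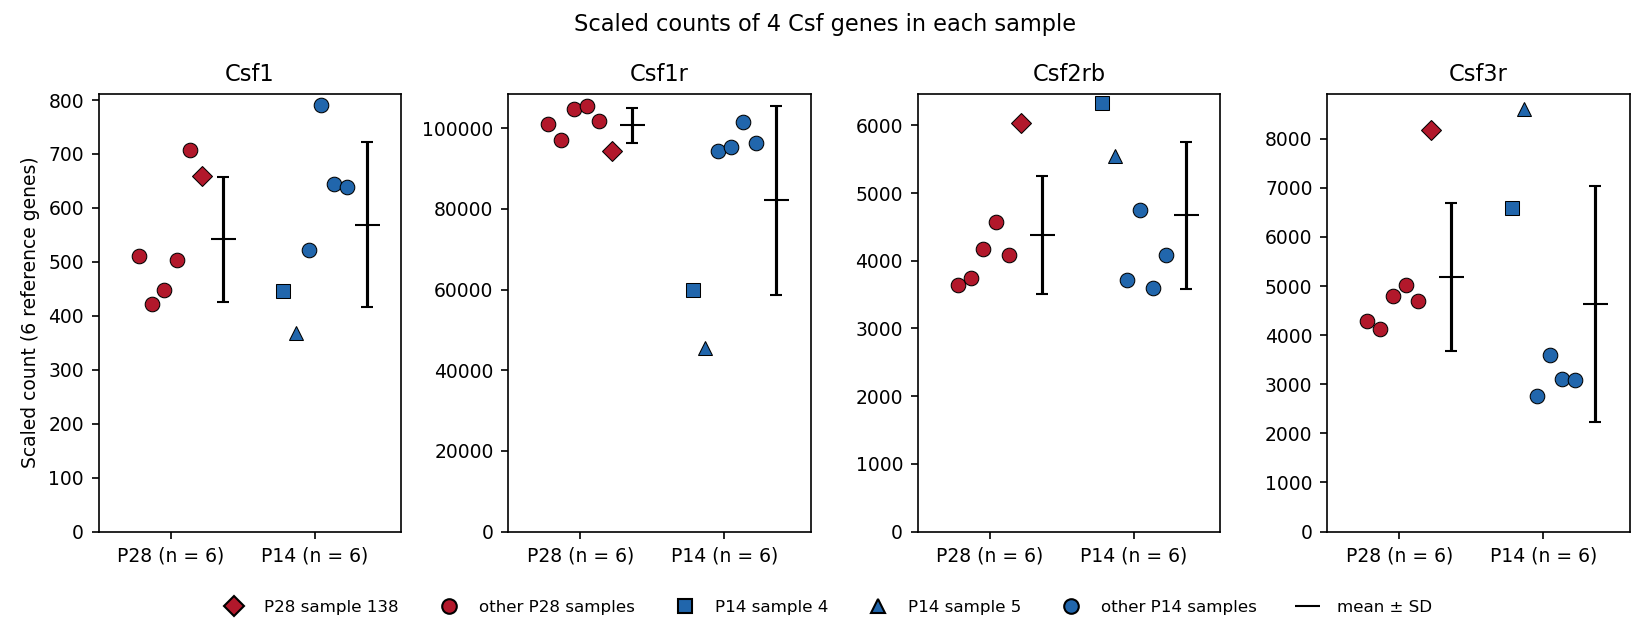
Scaled counts of Csf1, Csf1r, Csf2rb and Csf3r in each sample, with P28 on the left and P14 on the right of each panel. Squares and triangles mark P14 samples 4 and 5, diamonds mark P28 sample 138, and bars give mean ± SD of 6 samples. The 6 P28 samples of Csf1r lie between 94270.3 and 105423, and P14 samples 4 and 5 lie at 59808 and 45475.

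Among the ligands, Csf1, the growth factor of macrophages and microglia, was above background in every sample. Its scaled counts had a low of 421, a median of 507 and a high of 707 in P28 microglia, and a low of 369, a median of 580.0 and a high of 791 in P14 microglia. The P28 range lay inside the P14 range, and the lowest values at P14 were those of samples 5 and 4. The means were 542 ± 116 at P28 and 568 ± 153 at P14 (SD, n = 6 each). The log2 fold change was -0.073 ± 0.19 (SE, 95% interval -0.48 to 0.33), and it did not pass edgeR's quasi-likelihood test (Benjamini-Hochberg adjusted p = 0.800). With the remaining 4 P14 samples, which held 522 to 791 scaled counts, the value was -0.26 ± 0.16 (edgeR adjusted p = 0.218), and -1.25 when these were scaled to positive controls (edgeR adjusted p = 7.94e-06). Sampling of the counted barcodes alone gives a coefficient of variation of 3.37% to 8.19% for Csf1, below the 21.4% seen among P28 animals and the 26.9% among P14 animals.

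Csf2, which encodes GM-CSF, was at background. Its raw counts ran between 13 and 25 in P28 lanes and between 10 and 33 in P14 lanes, where the threshold, the mean of the lane's negative probes plus 2 SD, lay between 12.9 and 33.4 counts. It exceeded that threshold in 0 of 6 P28 samples and in 2 of 6 P14 samples, which were sample 25 (22 counts, threshold 15.5) and sample 81 (33 counts, threshold 24.3). Neither detection nor a difference was established at this depth, and no fold is given. The thresholds themselves were 24.8 to 33.4 counts in P28 lanes and 12.9 to 32.0 in P14 lanes, and their part in the difference in detection was not tested.

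**Figure D2:**
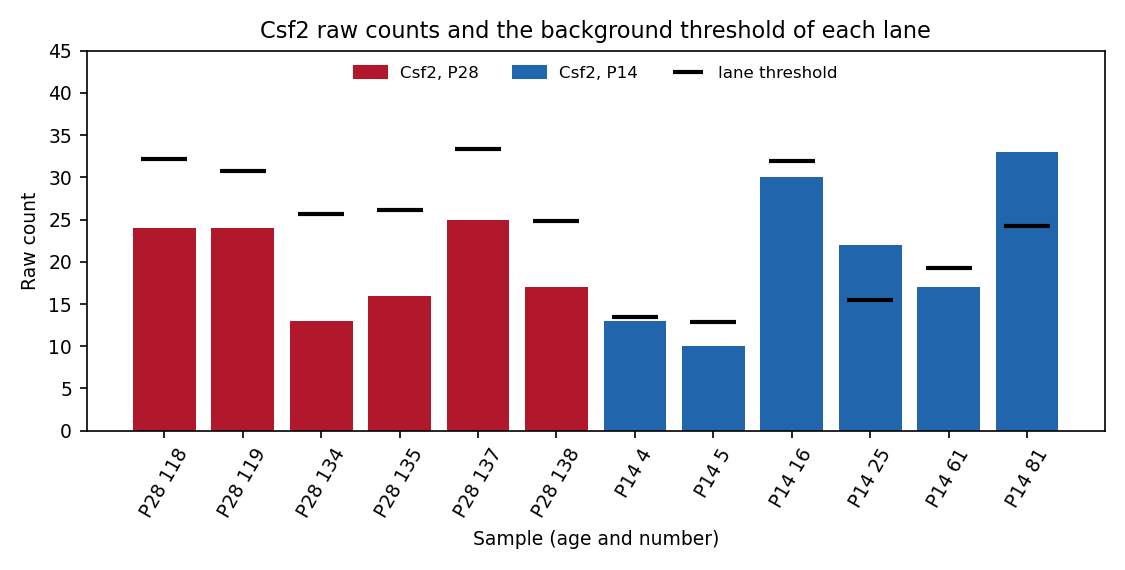
Raw Csf2 counts in each lane, P28 lanes on the left and P14 lanes on the right, with a black mark at each lane's background threshold. All 6 P28 bars end below their mark, and the bars of P14 samples 25 (22 counts) and 81 (33 counts) end above it.

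Csf1r, the receptor for Csf1, was even among the P28 animals and uneven among the P14 animals. Its scaled counts had a low of 94270.3, a median of 101532 and a high of 105423 at P28. At P14 they had a low of 45475, a median of 94886 and a high of 101551. The other four P14 samples held 94323 to 101551, within the P28 range, and the spread at P14 came from sample 4 at 59808 and sample 5 at 45475. The coefficient of variation was 4.33% at P28 and 28.5% at P14, a ratio of 6.59. None of the 366 tested genes had a larger ratio, and the median ratio was 1.45. The median coefficient of variation over these genes was 15.6% at P28 and 23.1% at P14. The ratio of Csf1r thus rests more on its small spread at P28 than on a large one at P14. Sampling of the counted barcodes alone gives a coefficient of variation of at most 0.737% for Csf1r, which is a lower limit on its counting error.

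The mean Csf1r level was 100769 ± 4361 at P28 and 82169 ± 23448 at P14 (SD, n = 6 each), a log2 fold change of 0.29 ± 0.17 (95% interval -0.076 to 0.66, edgeR adjusted p = 0.212). With samples 4 and 5 left out, the P14 mean was 96934 ± 3194 (SD, n = 4) and the log2 fold change 0.056 ± 0.059 (95% interval -0.073 to 0.18, edgeR adjusted p = 0.469). The call for Csf1r depended on the scale. With all 14 reference genes the value was 0.38 (edgeR adjusted p = 0.0421), and with limma on the authors' own values it was 0.48 (adjusted p = 0.0468). On positive controls alone it was -0.53 (edgeR adjusted p = 0.214), and it was -0.94 there without samples 4 and 5 (edgeR adjusted p = 3.67e-06). The authors' deposited table gives Csf1r a fold of 1.34 with a p of 0.0110, and for Csf1 it gives 1.04 with a p of 0.762.

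Csf2rb, the common beta chain, had a low of 3649, a median of 4129 and a high of 6031 scaled counts at P28. At P14 the low was 3597, the median 4412 and the high 6329.6. The 3 highest values belonged to P14 sample 4 (6329.6), P28 sample 138 (6031) and P14 sample 5 (5549.9), and the other samples of both ages overlapped, with 3649 to 4578 at P28 and 3597 to 4747 at P14. The log2 fold change was -0.093 ± 0.16 (95% interval -0.44 to 0.26, edgeR adjusted p = 0.706). Leaving out samples 4 and 5 gave 0.12 ± 0.14 (95% interval -0.19 to 0.42, edgeR adjusted p = 0.520), and -0.90 on positive controls (edgeR adjusted p = 2.23e-05). In the authors' deposited table the fold of Csf2rb is 1.02 with a p of 0.911. Mice carry a second, near-identical beta chain gene, Csf2rb2, and since the probe sequence was not used here, whether the probe separates these genes was not tested.

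Csf3r, the G-CSF receptor, had a low of 4116, a median of 4750.4 and a high of 8177 scaled counts at P28, and a low of 2754, a median of 3359 and a high of 8602 at P14. At P14 the values fell in 2 ranges, 2754 to 3602 in samples 16, 25, 61 and 81, against 6598 in sample 4 and 8602 in sample 5. At P28 sample 138 held 8177 and the other five 4116 to 5029.8. All 6 P28 samples were therefore above the 4 lower P14 samples, and P28 samples other than 138 were below P14 samples 4 and 5.

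With all 12 samples the log2 fold change of Csf3r was 0.17 ± 0.28 (95% interval -0.44 to 0.77, edgeR adjusted p = 0.703), from means of 5186 ± 1504 at P28 and 4626 ± 2404 at P14 (SD, n = 6 each). Without P14 samples 4 and 5 the P14 mean was 3139.5 ± 349 (SD, n = 4), and Csf3r was called higher at P28, at 0.72 ± 0.18 (95% interval 0.34 to 1.11, edgeR adjusted p = 0.00605). It was then the 1 of 4 Csf genes called, and 43.2% of all tested genes were called in that fit. Samples 4 and 5 were the highest P14 pair for Csf3r, so leaving them out favours this outcome and narrows the P14 spread. That limit applies to every fit without them. Leaving out P28 sample 138 as well, a choice made after seeing the data, gave 0.55 ± 0.091 (95% interval 0.35 to 0.75, edgeR adjusted p = 0.000573). Without samples 4 and 5, 5 of 6 other scalings, also added after seeing the data, called Csf3r higher. The exception was scaling to positive controls, at -0.30 (edgeR adjusted p = 0.0836). The authors' deposited table, which uses all samples, gives Csf3r a fold of 1.21 with a p of 0.465.

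**Figure D3:**
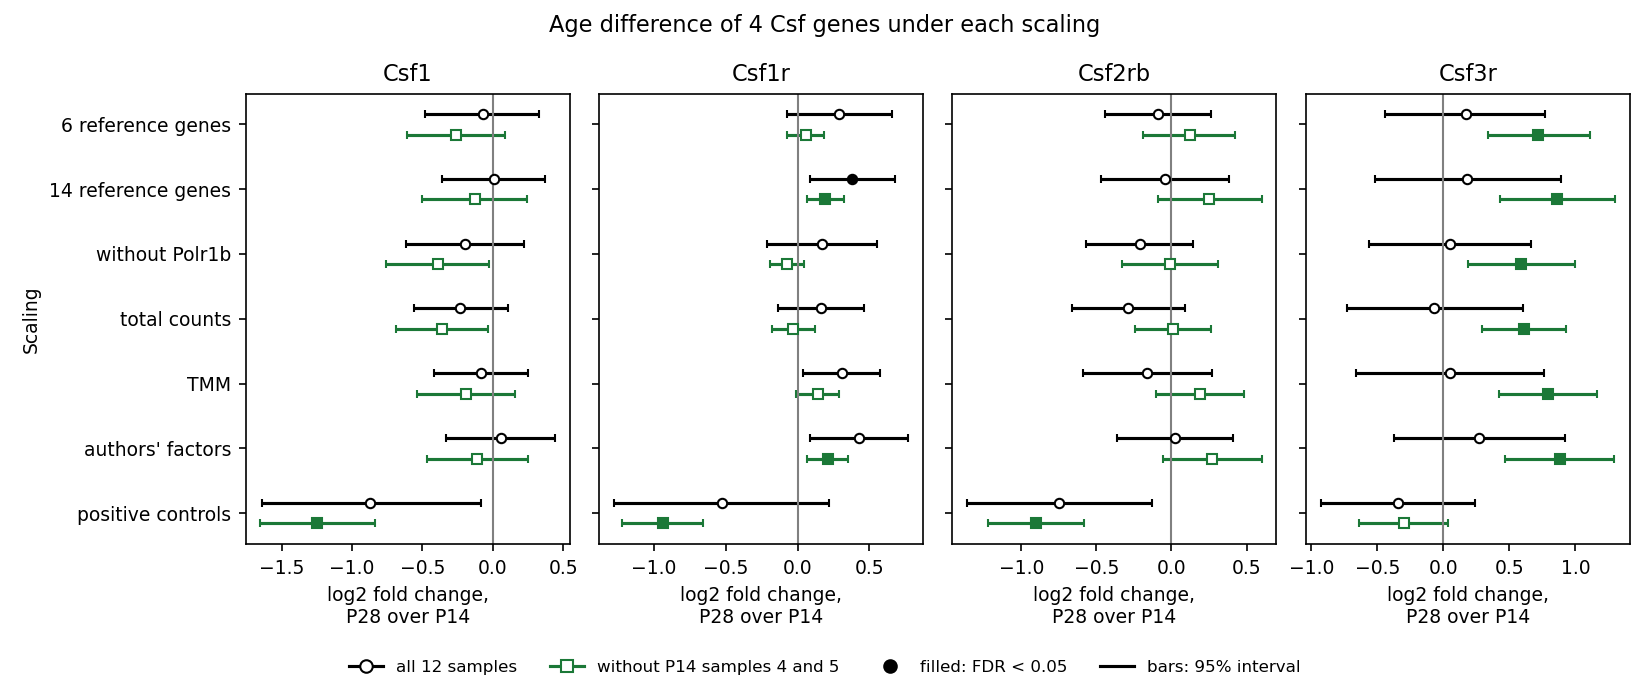
Log2 fold change of each tested Csf gene, P28 over P14, with its 95% interval, for 7 ways of scaling the counts. Circles use all 12 samples, squares leave out P14 samples 4 and 5, and filled symbols passed a false discovery rate of 0.05. Csf3r without those samples lies at 0.72 on the 6 reference genes and at -0.30 on positive controls.

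Neutrophils carry much Csf3r. The 7 neutrophil markers on the panel summed to 104 to 149.7 scaled counts in P28 samples and to 116 to 178 in P14 samples, and 3 of the 7 met the condition for testing. P14 samples 4 and 5, high in Csf3r, had sums of 158 and 116, below the 159.9 to 178 of the other P14 samples. P28 sample 138 had a sum of 131, inside the range of the other P28 samples. Of the defining markers, S100a9 was above background in 0 samples, S100a8, Camp and Cxcr1 each in 0 of 6 P28 and 2 of 6 P14 samples, and Ltf in 2 of 6 P28 and 5 of 6 P14 samples. Mean scaled counts were 20.4 at P28 and 17.9 at P14 for S100a8, and 16.2 and 13.2 for Cxcr1. They were 14.8 and 16.8 for Camp and 26.0 and 28.1 for Ltf. Lane thresholds were 24.8 to 33.4 counts at P28 and 12.9 to 32.0 at P14, and their part in these detection counts was not tested. Cxcr2, a chemokine receptor of neutrophils, had 10.3 to 18.7 scaled counts at P28, above background in 0 of 6 samples, and 37.1 to 59.5 at P14, above background in 6 of 6. Ccr3, which eosinophils carry and which does not define neutrophils, was above background in 3 of 6 P28 and 4 of 6 P14 samples. It enters the sums above, with 16.9 scaled counts in P14 sample 4 and 2.47 in sample 5, against a P14 median of 35.2. Ccr3 apart, sample 4 was below the P14 median only for Cxcr2 (43.0 against 44.3), so its low sum rests on Ccr3. Sample 5 was below the P14 median for every one of these markers except S100a9 (7.42 against 5.29). Camp (22.2) and Cxcr1 (18.2) were highest among P14 samples in sample 4, and Ltf (38.5) was highest among P28 samples in sample 138. The part of neutrophils in the Csf3r values was not tested.

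Some other marker sums also moved with the samples that stood apart, and others did not. Dendritic cell markers summed to 1901 to 2400.0 scaled counts at P28 and 945 to 1646 at P14, where samples 4 and 5 were low, at 1091 and 945, as they were for Csf1r. The endothelial and mural markers were high in P28 sample 138, at a summed 14668 scaled counts against 6219 to 9711 in the other P28 samples and 3114 to 4889 at P14. NK cell markers were low in P14 samples 4 and 5, at 128 and 91.5 against 171 to 219 in the other P14 samples. The 1 oligodendrocyte marker was high, at 272 in each against 126 to 171. Sums of monocyte and border macrophage markers and of B cell markers in samples 4 and 5 lay inside the range of the other P14 samples. The part of any of these cell types in the Csf values was not tested.

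Ratios between Csf genes within a sample need no scaling, and only their change from sample to sample is read here, since probes differ in efficiency. The log2 ratio of Csf1 to Csf1r ran from -7.87 to -7.16 in P28 samples and from -7.49 to -6.91 in P14 samples. Its mean difference was -0.40, P28 minus P14, with an exact two-sided permutation p of 0.0346 and a Benjamini-Hochberg adjusted p of 0.0780 over the ratios of 365 genes to Csf1r. It did not pass, while 36.2% of those ratios did. Without P28 sample 138 alone the difference was -0.49 (exact permutation, adjusted p = 0.0475), and without P14 samples 4 and 5 it was -0.33 (exact permutation, adjusted p = 0.195).

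The log2 ratio of Csf2rb to Csf1r ran from -4.79 to -3.97 at P28 and from -4.82 to -3.03 at P14, the top 2 values being those of P14 samples 5 and 4. Its difference was -0.44 with all samples (exact permutation p = 0.260, adjusted 0.379) and 0.049 without P14 samples 4 and 5 (exact permutation, adjusted p = 0.882). For Csf3r to Csf1r the difference was -0.087 with all samples (exact permutation p = 0.877, adjusted 0.906). It was 0.63 without P14 samples 4 and 5 (exact permutation p = 0.00476, adjusted 0.0177), and 0.48 when P28 sample 138 was left out too (exact permutation p = 0.00794, adjusted 0.0252), and each of these p-values is the smallest that its number of samples allows. The higher Csf3r of P28 microglia against the 4 remaining P14 samples was thus also present as a ratio that uses no reference gene. It is no separate support. Samples 4 and 5 were the highest P14 pair for Csf3r and the lowest for Csf1r, so leaving them out favours this outcome. Without them the log2 fold change of Csf1r was 0.056, so the ratio mostly restates the fold change of Csf3r.

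The ratio of Csf3r to Csf2rb, given as a description, was 1.10 to 1.18 in P28 samples 118, 119, 134, 135 and 137 and 1.36 in sample 138. It was 0.741 to 0.866 in P14 samples 16, 25, 61 and 81, 1.04 in sample 4 and 1.55 in sample 5. The P28 samples exceeded 5 of the 6 P14 samples, sample 4 included, and P14 sample 5 exceeded them all.

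**Figure D4:**
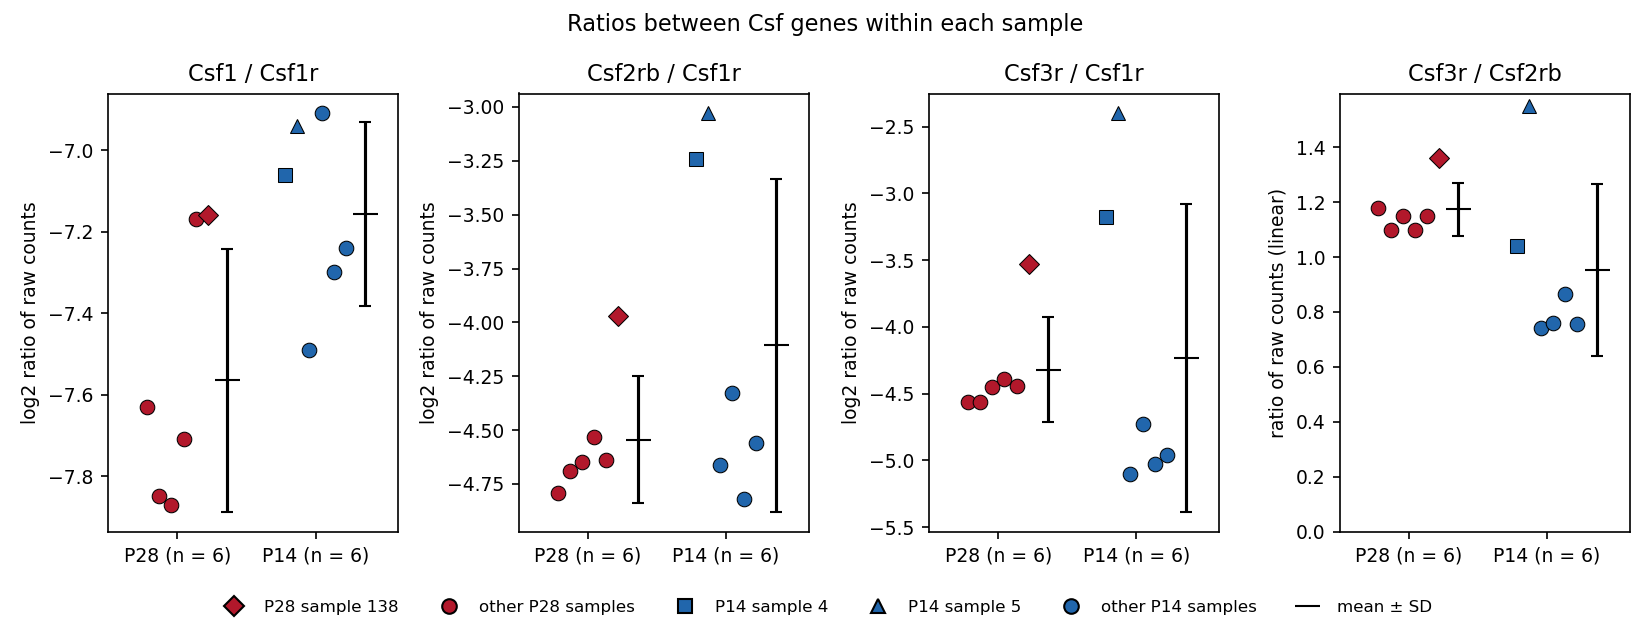
Ratios of raw counts between Csf genes in each sample, P28 left and P14 right, on a log2 axis for the ratios to Csf1r and a linear axis for Csf3r over Csf2rb. Bars give mean ± SD of 6 samples. For Csf3r over Csf1r the P28 samples lie between -4.56 and -3.53, and P14 samples 4 and 5 lie above them at -3.18 and -2.40.

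How alike 2 genes were over the 12 samples was measured by the SD of their log2 ratio, which is small when they move together and which no scaling changes. It was 0.34 for Csf1 with Csf1r and 0.34 for Csf2rb with Csf3r. Across these pairs it was larger, at 0.47 for Csf1 with Csf2rb, 0.60 for Csf1r with Csf2rb, 0.74 for Csf1 with Csf3r and 0.82 for Csf1r with Csf3r. With all 365 other tested genes, the median was 0.45 for Csf1, 0.43 for Csf1r, 0.51 for Csf2rb and 0.71 for Csf3r. All genes of a sample share its library and depth, P14 samples 4 and 5 enter every one of these values, and no test was made.

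The genes nearest to Csf1 by this measure were Stat2 (0.18), Ifngr1 (0.19) and Il6ra (0.21), where the median over 365 genes was 0.45. Among those nearest to Csf1r were Ifnar1 (0.10), a chain of the type I interferon receptor, and Tapbp (0.13), which loads peptide on MHC class I, with a median of 0.43. Csf2rb lay nearest to Cx3cr1 (0.14), the fractalkine receptor of microglia, Cfp (0.15), which encodes properdin, and Itgam (0.16), which encodes CD11b, with a median of 0.51. Csf3r had more distant neighbours, Tnfrsf13b (0.21), Clec5a (0.27) and Cd81 (0.30), with a median of 0.71.

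Genes downstream of CSF1R on the panel mostly did not pass the test. Of 11 tested members of that list, Csf1 and Csf1r included, 1 rose, 1 fell and 9 did not pass, and their median log2 fold change was 0.10. Over all 366 genes, 61 rose and 51 fell, which is 30.6%, and the median was 0.0026. Leaving out samples 4 and 5 gave 1 higher, 2 lower and a median of -0.13 for the list, and 68 higher, 90 lower (43.2%) and a median of -0.074 for all genes. Fyn, a Src-family kinase, fell to 309 ± 42.2 scaled counts at P28, against 859 ± 283 at P14 (SD, n = 6 each, no overlap), a log2 fold change of -1.48 ± 0.20 (edgeR adjusted p = 6.62e-05). It stayed called in each of the 29 alternatives run. Ptpn6, the phosphatase SHP-1 that restrains CSF1R and cytokine receptors, rose to 7803 ± 949 scaled counts at P28, against 5703 ± 318 at P14 (0.45 ± 0.10, edgeR adjusted p = 0.00276), but had -0.26 on positive controls. The kinase gene Syk (-0.03), the adaptor gene Tyrobp (0.038) and the phosphatase gene Ptprc (0.36) did not pass.

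In the list for the common beta chain, 1 of 7 tested genes rose, none fell and 6 did not pass, with a median log2 fold change of -0.064. With samples 4 and 5 left out, 1 was higher and 1 lower, with a median of 0.039. The share called was below the 30.6% of all genes, and no test of that difference was made. Stat5a, a transcription factor activated by GM-CSF and interleukin-3, rose to 633 ± 42.2 scaled counts at P28, against 423 ± 134 at P14 (0.57 ± 0.19, edgeR adjusted p = 0.0274). Its call was lost without P28 sample 134 or 135 (edgeR adjusted p = 0.0513 and 0.0579), when Polr1b was left out of the scaling (0.45, edgeR adjusted p = 0.0821) and on positive controls (-0.25). Jak2, the kinase bound to both the common beta chain and the G-CSF receptor, had 9567 scaled counts in P28 sample 138, against 3398 to 4045 in the other P28 samples and 4401 to 6751 at P14. With that sample its log2 fold change was -0.14 ± 0.24 (edgeR adjusted p = 0.701), and without it -0.48 (edgeR adjusted p = 0.00773). Sample 138 was thus the highest P28 sample for Csf2rb, Csf3r and Jak2 alike. Stat5b (0.18) and Jak1 (0.12) did not pass.

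In the list for the G-CSF receptor, 3 of 9 tested genes rose, none fell and 6 did not pass, with a median of 0.17, a share near the 30.6% of all genes. With samples 4 and 5 left out, 4 were higher and 1 lower, with a median of 0.13. Besides Stat5a and Ptpn6, which also stand in the lists above, Socs3 rose. Socs3 encodes an inhibitor that binds the activated G-CSF receptor and ends its signal. It had 2184 ± 319 scaled counts at P28 and 957 ± 428 at P14 (SD, n = 6 each), with no overlap and a log2 fold change of 1.19 ± 0.26 (edgeR adjusted p = 0.00276), and it was not called on positive controls (0.34, edgeR adjusted p = 0.469). Stat3, the main STAT of this receptor, had -0.30 ± 0.13 (edgeR adjusted p = 0.0924) with all samples. It was called lower in 8 of 29 alternatives, among them the fit without P14 samples 4 and 5, at -0.39 (edgeR adjusted p = 0.0185).

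Of 7 tested transcription factors known to act on myeloid receptor genes, 6 were above background at both ages. Of these, 1 rose, none fell and 5 did not pass, with a median of 0.11, where 30.6% of all tested genes were called. The counts were the same without samples 4 and 5, with a median of 0.041, where 43.2% of all tested genes were called. Runx1 rose to 4168 ± 462 scaled counts at P28, against 3017 ± 463 at P14 (0.47 ± 0.12, edgeR adjusted p = 0.00814, no overlap), and had -0.31 on positive controls. Gfi1, a repressor active in granulocyte precursors, was above the lane threshold in 0 of 6 P28 samples and 5 of 6 P14 samples. It entered the test through P14 alone, so neither a fold nor a test is given for it. Ikzf1 (0.083), Irf8 (0.13), Cebpb (0.0086) and Irf4 (0.67) did not pass. Irf4 had 240.1 ± 27.5 scaled counts at P28 and 149 ± 68.4 at P14 (edgeR adjusted p = 0.0788), and was called higher in 10 of 29 alternatives.

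CSF1R belongs to a receptor kinase family in which Pdgfrb, the PDGF receptor of mural cells, was also tested. Pdgfrb rose to 660.4 ± 83.5 scaled counts at P28, against 494 ± 88.9 at P14 (0.41 ± 0.14, edgeR adjusted p = 0.0295). That call was lost without P14 samples 4 and 5 (0.29, edgeR adjusted p = 0.0644) and without any 1 of 7 single samples (edgeR adjusted p up to 0.0715), and also when Polr1b was left out of the scaling (0.30, edgeR adjusted p = 0.118), with total counts (0.27, edgeR adjusted p = 0.0773) and on positive controls (-0.35). The endothelial and mural marker sum, of which Pdgfrb is a member, was also higher at P28, and its part in this value was not tested. The ligand gene Pdgfb had 0.25 ± 0.11 (edgeR adjusted p = 0.0956).

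Cytokines and NF-kappaB subunits known to induce Csf ligands made up the last list. Of 6 tested, 4 rose, 1 fell and 1 did not pass, with a median log2 fold change of 0.51, where 30.6% of all genes were called. With samples 4 and 5 left out, 3 were higher and 2 lower, with a median of 0.39, and on positive controls 0 were higher and 2 lower. Tnf rose to 1221 ± 154 scaled counts at P28, against 659.8 ± 177 at P14 (0.88 ± 0.17, edgeR adjusted p = 0.000945). Il1a rose to 7356 ± 550.0 scaled counts at P28, against 4665 ± 1370.5 at P14 (0.66 ± 0.17, edgeR adjusted p = 0.00818). Neither gene overlapped between the ages, and neither was called on positive controls (0.14 for Tnf and 0.029 for Il1a). Il1a was not called with total counts either (0.47, edgeR adjusted p = 0.0740). Il1b, at 103 ± 13.7 scaled counts at P28 and 69.9 ± 13.4 at P14, rose by 0.54 ± 0.15 on the log2 scale (edgeR adjusted p = 0.0121) and had -0.22 on positive controls.

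The NF-kappaB subunits moved in opposite directions. Rela, which encodes the subunit p65, rose to 2996 ± 689.8 scaled counts at P28, against 2156 ± 309 at P14 (0.47 ± 0.15, edgeR adjusted p = 0.0225). That call was lost without P14 samples 4 and 5 (0.36, edgeR adjusted p = 0.0625) and when Polr1b was left out of the scaling (0.35, edgeR adjusted p = 0.0888), and the value was -0.32 on positive controls. Nfkb1, which encodes p105 and p50, fell to 2955 ± 382 scaled counts at P28, against 4747 ± 1257 at P14 (-0.68 ± 0.18, edgeR adjusted p = 0.00818). The ages overlapped for Nfkb1, with 2619 to 3649.8 at P28 and 2552 to 5751 at P14, and the exact permutation test did not call it (adjusted p = 0.0671). Tslp, a cytokine gene, had -0.38 ± 0.15 (edgeR adjusted p = 0.0619). These changes stand beside a Csf1 level for which no difference was called and a Csf2 level at background.

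**Figure D5:**
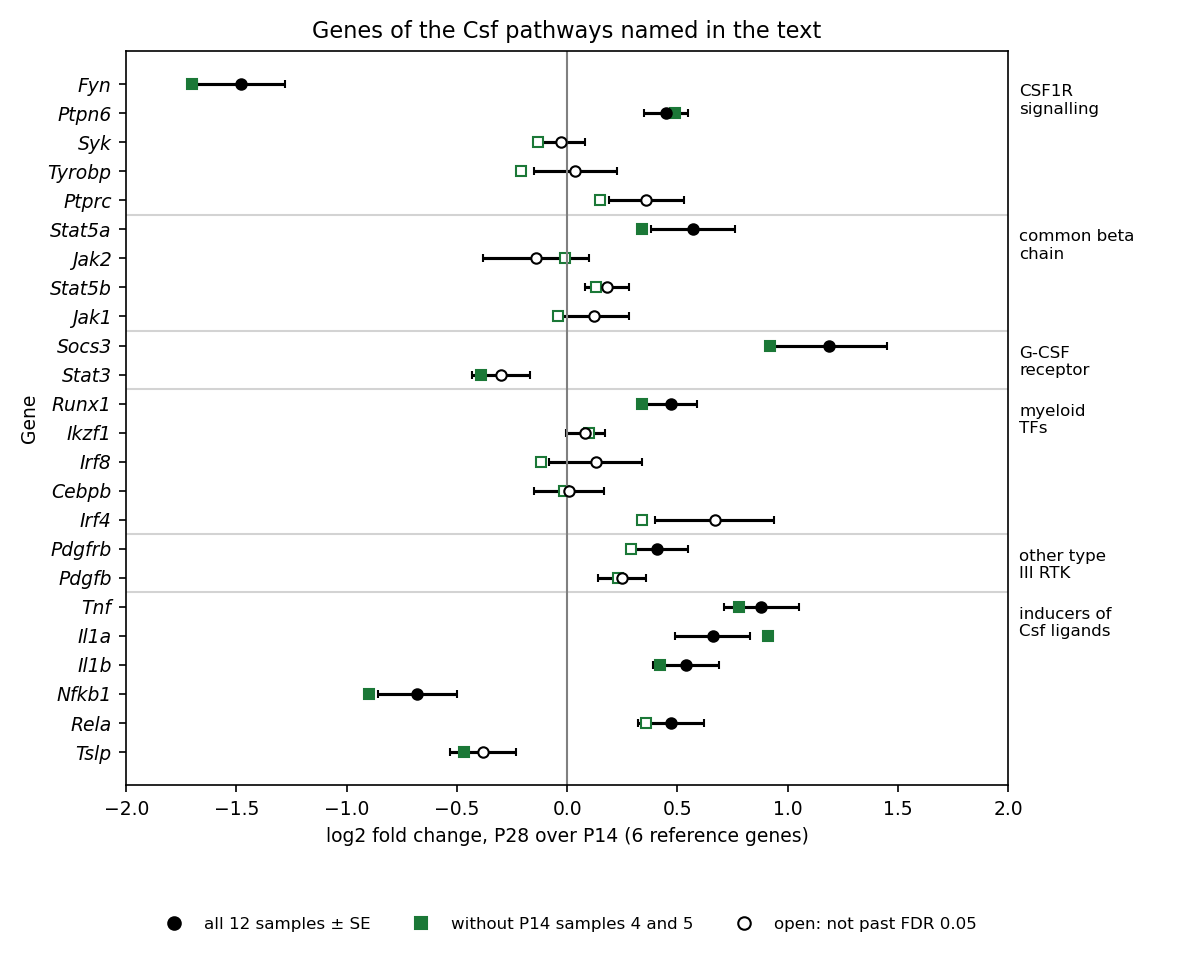
Log2 fold change, P28 over P14, of the named genes of the Csf pathways that were above background at both ages, each shown once under the first list that holds it. Circles with SE bars use all 12 samples, squares leave out P14 samples 4 and 5, and open symbols did not pass a false discovery rate of 0.05. Fyn lies lowest at -1.48 and Socs3 highest at 1.19.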

How the data were processed

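The deposited raw table holds unscaled whole barcode counts from the authors for 545 endogenous and 14 reference genes and for 8 negative and 6 positive control probes. A second deposited table holds the authors' scaled values, used here as a score, scaled per the labels to positive controls and reference genes. That table also gives the authors' fold, a ratio of P28 to P14 means, and a p-value per gene; for the kind of test, the sources used here do not say. The design text counts 5 reference genes and lists 6 (Alas1, Gapdh, Oaz1, Polr1b, Sdha, Tbp); all 6 were used.

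Ages and sample numbers come from the sample titles. A gene was tested if its raw count was above its lane threshold (mean of the negative probes plus 2 SD) in at least 40% of the 12 samples. edgeR 4.0.16 (R 4.3.3) fitted age to raw counts of 366 genes by quasi-likelihood, offset by the 6 reference genes (geometric mean) and Benjamini-Hochberg adjustment over all 366. Ratios used exact two-sided permutation (924 arrangements and a smallest p of 0.00216 with all samples, 210 and 0.00476 without P14 samples 4 and 5, 126 and 0.00794 without P28 sample 138 as well) on log2 values with a pseudocount of 1. Alternatives were DESeq2 1.42.0, limma 3.58.1, other scalings, detection rules and pseudocounts, and samples left out. Every present list gene past the threshold was named, then up to 4 others with the highest mean count, and for each Csf gene the 3 with the smallest SD of the log2 ratio; 1 gene that this rule names is left out here. The Csf genes, lists and tests were chosen with earlier results of these data known. Counts of PCR copies are not independent molecules, so counting errors are lower limits. All 5 Csf genes matched RefSeq by accession; promoters were held for 3 and used for Csf1 and Csf3r. The files name no genome build.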

Additional observations from a re-analysis of the deposited data

Results flagged for a closer look

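Among 60 groups of 6 samples (30 genes at each age), 6 held a sample far from the other five. Chance alone gives about 5% of groups when values are normal and groups independent. These groups share the same 12 samples, so their number cannot be read as an excess over that rate. In P28 microglia, 3 of these were sample 138. It had 8177 scaled counts of Csf3r, where the other P28 samples had 4116 to 5029.8. It had 9567 of Jak2, where the others had 3398 to 4045, and 4363 of Rela, where the others had 2533 to 2991. P28 sample 118 had 391 scaled counts of Fyn, where the others had 277 to 313. In P14 microglia, sample 5 was low in Stat5b, at 1076 scaled counts where the others had 1291 to 1376, and in Tslp, at 39.6 where the others had 58.5 to 66.4.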

How the results depend on the processing

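The number of genes called, 112, ran from 96 to 163 over 29 alternatives. The split of higher to lower calls was 61 to 51, and positive controls gave 8 to 127, total counts 51 to 96, leaving out Polr1b 50 to 74, all reference genes 89 to 42 and the authors' factors 93 to 36. The median log2 fold change of all tested genes moved to -0.12 without Polr1b, -0.14 with total counts, -0.74 with positive controls, 0.13 with the authors' factors and 0.18 with limma on the authors' values. Csf1r was called at 0.48 with limma on the authors' values and 0.38 with all reference genes. Csf3r was called without P14 samples 4 and 5 (0.72) and without these and P28 sample 138 (0.55). Without samples 4 and 5 under other scalings, chosen after seeing the data, Csf3r was called at 0.86 with all reference genes, 0.59 without Polr1b, 0.61 with total counts, 0.79 with TMM and 0.88 with the authors' factors, and Csf1r at 0.21 with the authors' factors and 0.19 with all reference genes. On positive controls without these samples, Csf1 (-1.25), Csf1r (-0.94) and Csf2rb (-0.90) were called lower. The log2 ratio of Csf1 to Csf1r ran from -0.49 to -0.34 with 1 sample left out. That of Csf3r to Csf1r was -0.087 with all samples, 0.63 without samples 4 and 5 and 0.48 without these and P28 sample 138. Csf2 exceeded the highest negative probe in 4 samples and the lane threshold in 2. On positive controls Ptpn6 (-0.26), Stat5a (-0.25), Runx1 (-0.31), Pdgfrb (-0.35), Il1b (-0.22) and Rela (-0.32) turned negative. The causes were not tested. No paired analysis was possible because the ages share no sample numbers. Background limits what can be said of Csf2 and Gfi1; Gfi1 is among the genes called, through P14 alone.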
